A study of Homo sapiens with 4 samples.

Results

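The enzymes and carriers that take glucose to lactate, the enzymes of glycogen turnover and the kinases that gate pyruvate entry into mitochondria were compared between SORE6+ and SORE6- PC3 cells. The 37 genes were taken by symbol, as the isoenzymes of each step together with their carriers and regulators, and all 37 were found among the 57963 genes of the tables. PC3 is a human prostate cancer line from a bone metastasis, and it carried a lentiviral reporter in which elements bound by SOX2 and OCT4 drive a destabilized GFP. GFP-positive cells were sorted as SORE6+ and GFP-negative cells as SORE6-, and the sample labels call the former cancer stem cells and the latter non cancer stem cells. RNA from 2 libraries of each gate was sequenced as 100 bp paired-end reads, to compare the transcriptomes of both populations. Both gates came from the same line, at passages 18 to 22, after selection with puromycin, and differed only in the reporter gate as far as the labels say. The sample labels give puromycin at 5 µg/mL. The methods of the study name a lower dose. The gate is thus a model within a single cell line, and no source used here says whether that line was a clone.

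Glycolysis splits glucose into pyruvate in a chain of enzymatic steps, and lactate dehydrogenase turns pyruvate into lactate so that glycolysis can continue without oxygen. Most steps are encoded by several isoenzyme genes with different tissue ranges and regulation, so a cell can change the make-up of a step without changing its sum. Many of these genes are known targets of HIF-1, the transcription factor of the response to low oxygen, and prostate tumours are known to become more glycolytic in late disease.

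Levels are in TPM, the share of a library's transcripts that a gene holds after correction for length, so levels of different genes can be compared and summed. TPM does not keep the number of reads, which leaves depth unknown here, and a value was listed above 0 for 29778 to 31501 genes. Mitochondrial transcripts held 15.6% to 19.2% of the TPM, with the higher values in the replicate 2 libraries of both gates. Epithelial markers were abundant, at a summed 2734 to 3205 TPM over 5 genes. KLK3, a marker of luminal prostate cells, stood at 0 in all 4 libraries. SOX2 reached at most 0.08 TPM and POU5F1, which encodes OCT4, 2.14 to 3.09 TPM, with overlapping gates. The RNA of the reporter's own factors therefore does not separate the gates in these tables, although POU5F1 was higher in SORE6+ cells within both pairs. By flow cytometry, the study reports more SOX2 and OCT4 protein in SORE6+ than in SORE6- PC3 cells.

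The 37 genes held 13538 and 13450 TPM in the SORE6- libraries and 17167 and 16361 TPM in the SORE6+ libraries. That is 1.35% and 1.34% of all transcripts against 1.72% and 1.64%, with no overlap between the gates. More cells that express a gene and more RNA of it per cell cannot be told apart in sorted populations. Of the 37 genes, 34 reached 1 TPM in at least 2 libraries and were tested as log2(TPM + 1), a scale on which the fold changes of low genes come out too small. The glucose carrier SLC2A3, the hexokinase-like HKDC1 and the bifunctional enzyme PFKFB1 did not. All 4 libraries stood below 1 TPM for each of these genes.

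**Figure D1:**
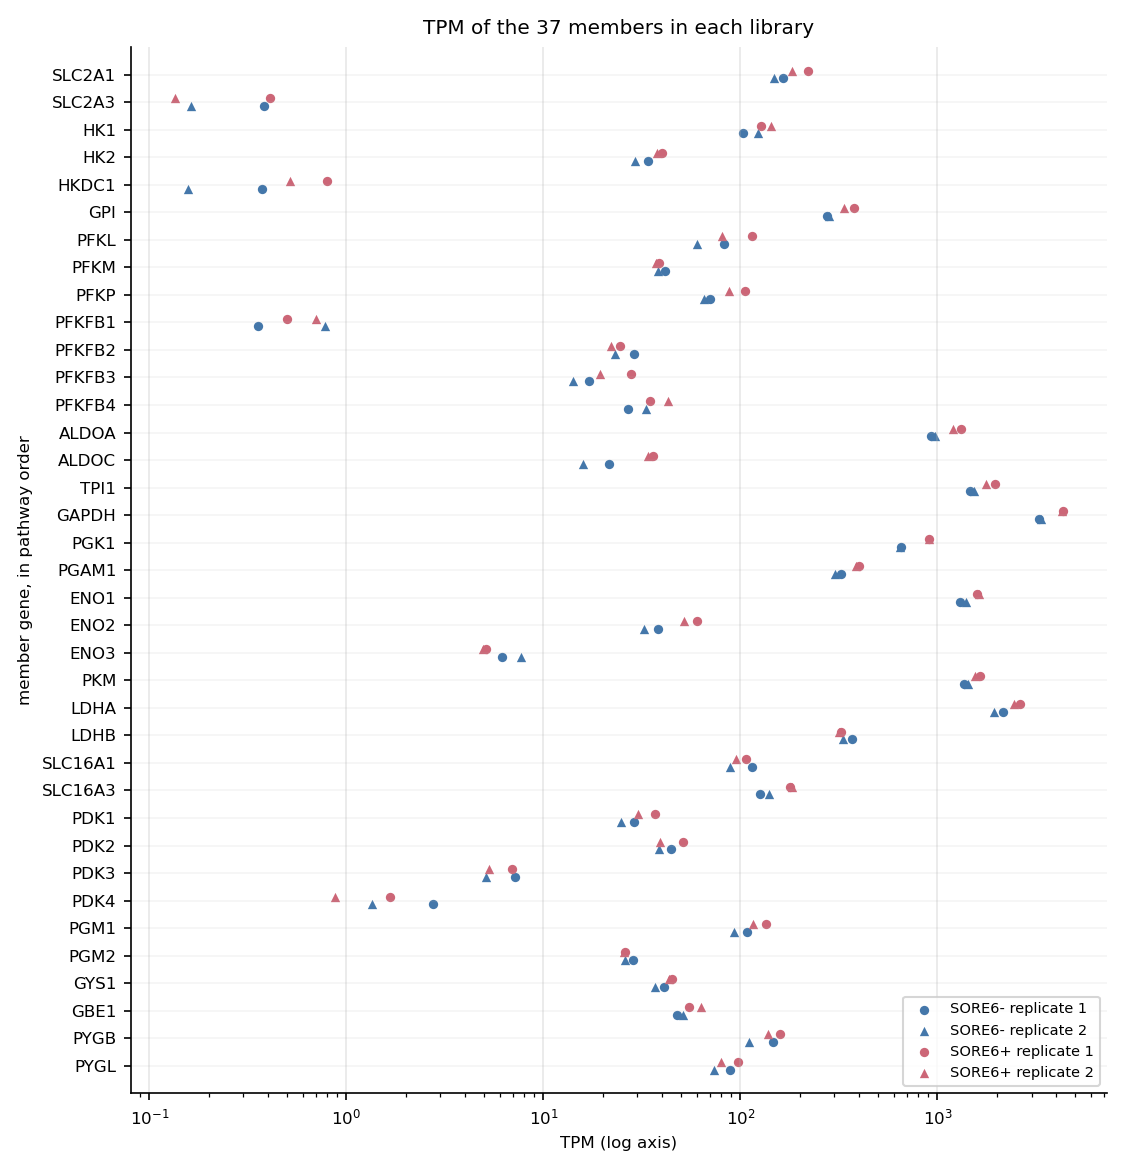
TPM of each of the 37 genes (log axis) in the 2 SORE6- libraries (blue) and the 2 SORE6+ libraries (red), with circles for replicate 1 and triangles for replicate 2. GAPDH, LDHA, TPI1, PKM and ENO1 stood at 1307 TPM or more in every library, and SLC2A3, HKDC1 and PFKFB1 stayed below 1 TPM.

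Limma without a block, the main test, called 0 of the 34 genes with thresholds of 0.1 for the adjusted p and 1.5 for the fold change, and it called 0% of the 17642 genes tested as higher and 0% as lower. At an unadjusted p under 0.05, 11 of the 34 genes were found, all higher in SORE6+ cells, beside 3.81% of all genes tested in either direction, and the smallest adjusted p among the 34 was 0.736. The p-values measure only the spread between these libraries, which limma moderates for each gene by that of the other genes tested. An exact permutation test of 2 libraries against 2 cannot give a two-sided p below 0.333. The second test, called the paired fit here, took the replicate number as a block over the 12826 protein-coding genes tested. With the block few residual degrees of freedom remain per gene. Its SEs and p-values thus lean heavily on the spread shared across genes. It called ALDOC and ENO2 higher, 2 of the 34 genes, against 0.554% of protein-coding genes called higher. It called 0 of the 34 genes lower, against 0.725% of protein-coding genes.

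Without the minimum of 1.5-fold, 22 of the 34 genes passed an adjusted p under 0.1 in the paired limma fit as higher and 0 as lower. The background was 3.54% of protein-coding genes higher and 6.67% lower. That background depends on scaling: of the protein-coding genes past this threshold 34.7% were higher with TPM as deposited and 73.2% with relative log expression factors, and of those also past 1.5-fold 43.3% and 60.6%. The factors moved the 34 genes to 24 higher and 0 lower. The 22 genes have small differences, with log2 fold changes between 0.20 for PKM and 0.89 for ALDOC. Of the 34 genes, 27 had an unadjusted p under 0.05 in the paired fit, 24 of them higher and 3 lower, beside 24.7% of protein-coding genes in either direction. The paired result depends on its settings. With the block over all 17642 genes, 24 of the 34 genes had an unadjusted p under 0.05 in limma, beside 16.9% of all genes, but 0 passed, with a smallest adjusted p of 0.234. With no filter on low values, 0 of the genes passed in the paired fit. ALDOC, ENO2, PFKP and PFKFB3 are among the genes that the study chose to display from these same libraries, so their direction is not independent evidence.

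By position alone, the lower SORE6+ library exceeded the higher SORE6- library in 22 of the 34 genes, against 11.2% of protein-coding genes. The opposite held for 3 of the 34, ENO3, LDHB and PGM2, against 19.4%, and for ENO3 alone with relative log expression or upper-quartile factors. The libraries of the gates overlapped in the other 9. Within both replicate numbers, 26 genes were higher in SORE6+ cells, against 25.3% of protein-coding genes, and 6 were lower, against 43.3%. SLC16A1 and PDK3 moved apart in the 2 pairs. The median log2 fold change over the 34 genes was 0.31, with 0.29 in each pair, beside a median of −0.04 over protein-coding genes.

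**Figure D2:**
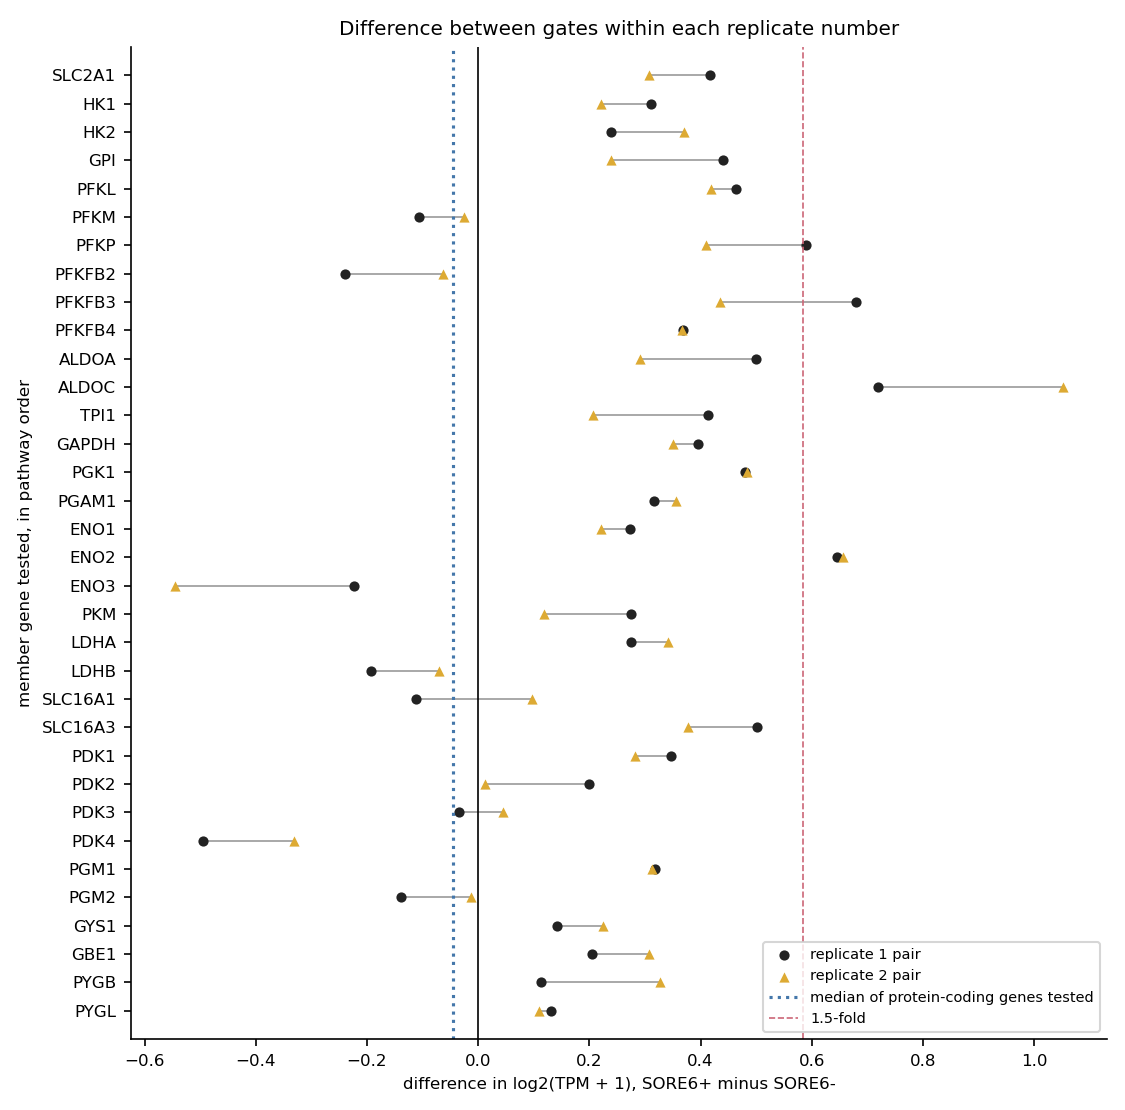
Difference in log2(TPM + 1) between SORE6+ and SORE6- cells within replicate 1 (black circles) and replicate 2 (yellow triangles) for the 34 genes tested, with the median of protein-coding genes (dotted, −0.04) and the 1.5-fold line (dashed). ALDOC and ENO2 lie past 1.5-fold in both pairs, and ENO3, PDK4, PFKFB2, LDHB, PGM2 and PFKM lie below 0 in both (with relative log expression factors PFKM and PGM2 turn to just above 0 on average).

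ALDOC and ENO2 are the brain-type forms of aldolase and enolase, and both are minor forms here. ALDOC, which splits fructose bisphosphate into triose phosphates, stood at 21.5 and 15.9 TPM in the SORE6- libraries against 36.1 and 34.03 TPM in the SORE6+ libraries. The gates did not overlap, and the SORE6- replicate 2 library was the lowest. The means were 18.7 ± 3.99 TPM and 35.1 ± 1.47 TPM (SD, n = 2 each), a ratio of 1.87, with 1.68 and 2.14 in the 2 pairs. The log2 fold change was 0.89 (SE 0.10 in the paired limma fit, adjusted p = 0.0217), and without the block limma gave SE 0.18 and an adjusted p of 0.910. ENO2, which makes phosphoenolpyruvate, stood at 38.03 and 32.4 TPM in SORE6- cells against 60.0 and 51.6 TPM in SORE6+ cells. Again both SORE6+ libraries were above both SORE6- libraries. The ratio of means was 1.59, with 1.58 and 1.59 in the pairs, and the log2 fold change was 0.65 (SE 0.07, paired limma fit, adjusted p = 0.0191). Without the block the same log2 fold change had SE 0.15 and limma gave an adjusted p of 1.00.

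The RefSeq bases before the start of both genes are shown because they are the 2 genes that passed, and those of LDHA and LDHB because these isoenzymes of a single step moved apart. Each is the 250 bases upstream of the start on GRCh38.p14, written 5′ to 3′ on the gene's strand, with ALDOC at chr17:28576896-28577145 (minus strand), ENO2 at chr12:6914330-6914579 (plus), LDHA at chr11:18394313-18394562 (plus) and LDHB at chr12:21657843-21658092 (minus). In GENCODE v29 on GRCh38 the ALDOC gene spans chr17:28573115-28577264 and the ENO2 gene chr12:6913745-6923698. Capitals mark ACGTG and GCGTG on either strand, the core letters that HIF-1 is known to bind. The palindrome CACGTG counts as a match on each strand.
ALDOC: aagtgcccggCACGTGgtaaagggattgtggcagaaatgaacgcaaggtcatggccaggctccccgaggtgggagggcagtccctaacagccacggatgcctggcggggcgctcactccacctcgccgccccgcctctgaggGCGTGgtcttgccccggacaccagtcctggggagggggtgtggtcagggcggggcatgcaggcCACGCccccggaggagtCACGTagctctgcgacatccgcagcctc
ENO2: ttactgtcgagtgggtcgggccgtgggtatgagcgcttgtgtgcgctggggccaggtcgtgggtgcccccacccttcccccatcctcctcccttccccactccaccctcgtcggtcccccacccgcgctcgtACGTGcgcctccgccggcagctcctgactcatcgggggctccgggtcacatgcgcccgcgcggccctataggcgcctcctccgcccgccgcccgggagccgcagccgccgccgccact
LDHA: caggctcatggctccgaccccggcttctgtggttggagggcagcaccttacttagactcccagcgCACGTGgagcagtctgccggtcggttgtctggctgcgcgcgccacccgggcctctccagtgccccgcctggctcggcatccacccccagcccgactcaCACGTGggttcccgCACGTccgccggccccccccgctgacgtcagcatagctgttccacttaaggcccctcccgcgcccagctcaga
LDHB: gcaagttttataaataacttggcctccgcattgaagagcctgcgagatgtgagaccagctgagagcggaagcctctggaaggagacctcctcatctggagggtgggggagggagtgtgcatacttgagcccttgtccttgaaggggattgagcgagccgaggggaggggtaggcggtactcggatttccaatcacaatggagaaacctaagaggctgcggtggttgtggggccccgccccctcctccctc
ALDOC held 3 matches of ACGTG and 2 of GCGTG, ENO2 held 1 of ACGTG, LDHA held 5 of ACGTG and LDHB held none. Such letters were not particular to the genes that were higher. PGM2, whose level was slightly lower, held 3 matches of ACGTG and 1 of GCGTG, while SLC16A3, PFKP, PGAM1 and PGM1 held none. RefSeq windows were matched for 34 of the 37 genes, and SLC2A3, PFKFB2 and SLC16A1 were not matched. Either motif was found in 18 of the 34 windows (52.9%), against 57.4% of the 9994 windows of protein-coding genes tested and 43.1% of all 27305 windows. ACGTG alone was in 11 of 34 (32.4%), against 23.3% and 18.7%, and GCGTG in 13 of 34 (38.2%), against 45.5% and 31.9%.

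Glucose enters through facilitated carriers and is trapped by hexokinase. SLC2A1 (GLUT1), the common carrier of cancer cells, stood at 165 and 148 TPM in SORE6- cells against 221 and 183 TPM in SORE6+ cells. The gates did not overlap (log2 fold change 0.36, paired limma fit, adjusted p = 0.0415), and SLC2A1 held 99.8% to 99.9% of the TPM of SLC2A1 and SLC2A3 in every library. SLC2A3 (GLUT3) stood at 0.38 and 0.16 TPM against 0.41 and 0.14 TPM, too low to be tested. HK1, the housekeeping hexokinase, stood at 103 and 122 TPM against 127 and 142 TPM. HK2, the inducible form, stood at 33.9 and 29.03 TPM against 40.2 and 37.8 TPM. Both were higher in SORE6+ cells without overlap, by 0.27 and 0.31 on the log2 scale (paired limma fit, adjusted p = 0.0612 and 0.0763). They moved together, so the share of HK2 in the step stayed between 19.2% and 24.8% with overlapping gates. HKDC1 stood at 0.37 and 0.16 TPM against 0.80 and 0.52 TPM, too low to be tested. GPI, which turns glucose 6-phosphate into fructose 6-phosphate, stood at 276 and 283 TPM against 375 and 334 TPM, with no overlap (log2 fold change 0.34, paired limma fit, adjusted p = 0.0499).

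Phosphofructokinase commits sugar to glycolysis, and its 3 genes moved unequally. The liver form PFKL stood at 82.4 and 60.3 TPM in SORE6- cells against 114 and 80.9 TPM in SORE6+ cells. Its libraries overlapped, since the SORE6+ replicate 2 library lay below the SORE6- replicate 1 library, yet the ratio was 1.38 and 1.34 within the pairs (log2 fold change 0.44, paired limma fit, adjusted p = 0.0345). The platelet form PFKP stood at 69.7 and 65.2 TPM against 105 and 87.0 TPM, without overlap (log2 fold change 0.50, adjusted p = 0.0367 in the same fit). The muscle form PFKM stood at 41.4 and 37.97 TPM against 38.4 and 37.3 TPM, with overlap (log2 fold change −0.07, adjusted p = 0.587). As a result the share of PFKM in the step went from 21.4% and 23.2% to 14.9% and 18.2%. The share of PFKP went from 36.0% and 39.9% to 40.9% and 42.4%. Neither share overlapped between the gates, and the ratio of PFKP to PFKM was 1.68 and 1.72 in SORE6- cells and 2.74 and 2.33 in SORE6+ cells.

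The PFKFB enzymes make and remove fructose 2,6-bisphosphate, the activator of phosphofructokinase. PFKFB3, the form known for the highest kinase relative to phosphatase activity, stood at 17.0 and 14.1 TPM in SORE6- cells against 27.8 and 19.5 TPM in SORE6+ cells. The gates did not overlap, although the SORE6+ replicate 1 library was far above the other SORE6+ library. The ratio of means was 1.52, but the log2 fold change of 0.56 fell short of 1.5-fold on the log2(TPM + 1) scale (paired limma fit, adjusted p = 0.0479). PFKFB4 stood at 26.7 and 33.1 TPM against 34.8 and 42.9 TPM, with a ratio of 1.30 in each pair (log2 fold change 0.37, adjusted p = 0.0523 in that fit). PFKFB2, known as the heart form, stood at 28.9 and 23.0 TPM against 24.3 and 22.0 TPM, with overlap (log2 fold change −0.15, adjusted p = 0.306). The leading gene of the group differed by gate in replicate 1, with PFKFB2 in SORE6- cells and PFKFB4 in SORE6+ cells. PFKFB4 led in both replicate 2 libraries. It held 36.6% and 46.6% of the group in SORE6- cells and 39.8% and 50.5% in SORE6+ cells, with overlap. PFKFB2 held 39.6% and 32.4% of the group in SORE6- cells and 27.8% and 25.8% in SORE6+ cells, without overlap. PFKFB3 passed PFKFB2 in the SORE6+ replicate 1 library alone, with a ratio of 1.14, against 0.588 and 0.614 in SORE6- cells and 0.886 in the SORE6+ replicate 2 library. PFKFB1 stood at 0.35 and 0.77 TPM against 0.50 and 0.70 TPM.

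The middle and lower steps hold the most abundant genes. ALDOA, the main aldolase, stood at 930 and 974 TPM in SORE6- cells against 1316 and 1193 TPM in SORE6+ cells (log2 fold change 0.40, paired limma fit, adjusted p = 0.0412). TPI1, which interconverts the triose phosphates, stood at 1465 and 1532 TPM against 1952 and 1768 TPM (0.31, adjusted p = 0.0523). GAPDH, the oxidative step, was the most abundant of the 37 genes, at 3279 and 3346 TPM against 4316 and 4269 TPM (0.37, adjusted p = 0.0226). None of these genes overlapped between the gates, and the gap between GAPDH means was many times the spread within a gate, with 3313 ± 47.4 TPM and 4293 ± 33.6 TPM (SD, n = 2 each). PGK1, which makes the first ATP of the pathway, stood at 652 and 645 TPM against 910 and 903 TPM. Its spread within a gate was narrow, with means of 649 ± 5.17 TPM and 907 ± 5.19 TPM (SD, n = 2 each) and ratios of 1.395 and 1.3995 in the pairs. Its log2 fold change was 0.48 (SE 0.04, paired limma fit, adjusted p = 0.0191, and SE 0.09 with an adjusted p of 0.736 without the block). PGK1 remained below 1.5-fold.

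PGAM1, the mutase that moves the phosphate of phosphoglycerate, stood at 322 and 302 TPM in SORE6- cells against 402 and 386 TPM in SORE6+ cells (log2 fold change 0.34, paired limma fit, adjusted p = 0.0367). ENO1, the main enolase, stood at 1307 and 1401 TPM against 1580 and 1633 TPM (0.25, adjusted p = 0.0494). PKM, the pyruvate kinase of most dividing cells, stood at 1363 and 1423 TPM against 1649 and 1545 TPM (0.20, adjusted p = 0.0904). All 3 genes lay above the SORE6- range in both SORE6+ libraries, and PKM had the smallest difference of the 22 genes that passed. Gene-level TPM does not separate the PKM1 and PKM2 splice forms. ENO3, the muscle enolase, went the other way, at 6.14 and 7.69 TPM against 5.11 and 4.96 TPM, without overlap (−0.38, paired limma fit, adjusted p = 0.139). Within enolase, ENO2 went from 2.81% and 2.25% of the step to 3.65% and 3.06%, and ENO3 from 0.45% and 0.53% to 0.31% and 0.29%. Within aldolase, ALDOC went from 2.26% and 1.61% to 2.67% and 2.77%. These minor forms shifted without overlap, while ENO1 and ALDOA kept over 96% of their steps in every library.

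The forms of lactate dehydrogenase differed in direction. LDHA, the muscle form that favours lactate formation, stood at 2157 and 1934 TPM in SORE6- cells against 2612 and 2452 TPM in SORE6+ cells (log2 fold change 0.31, paired limma fit, adjusted p = 0.0377). LDHB, the heart form, stood at 368 and 331 TPM against 322 and 315 TPM (−0.13, adjusted p = 0.184 in that fit). LDHA did not overlap between the gates, and LDHB had both SORE6+ libraries just under both SORE6- libraries. The ratio of LDHA to LDHB was 5.86 and 5.84 in SORE6- cells and 8.11 and 7.78 in SORE6+ cells. Such a ratio within a library does not depend on how libraries are scaled, and the replicates of a gate lay far closer to each other than to the other gate. LDHB held 14.6% of the step in both SORE6- libraries and 10.98% and 11.4% in the SORE6+ libraries. The lower level of LDHB itself does depend on scaling. With relative log expression factors it stood at 343 and 336 against 319 and 337, where the gates overlapped.

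Lactate leaves and enters cells through the monocarboxylate carriers. SLC16A3 (MCT4), known as the exporter of highly glycolytic cells, stood at 125 and 140 TPM in SORE6- cells against 178 and 183 TPM in SORE6+ cells. No library overlapped, and the means were 133 ± 10.6 TPM and 180 ± 3.51 TPM (SD, n = 2 each), with a log2 fold change of 0.44 (paired limma fit, adjusted p = 0.0333). SLC16A1 (MCT1), the high-affinity carrier, stood at 115 and 88.4 TPM against 106 and 94.5 TPM, with the SORE6+ values inside the SORE6- range (−0.01, adjusted p = 0.954). SLC16A3 made up 52.2% and 61.4% of both carriers in SORE6- cells and 62.6% and 65.9% in SORE6+ cells. The gates do not overlap in that share, but the gap from 61.4% to 62.6% is small beside the spread of the SORE6- libraries. BSG, the chaperone of both carriers, stood at 270 and 283 TPM against 297 and 306 TPM (0.13, adjusted p = 0.170).

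**Figure D3:**
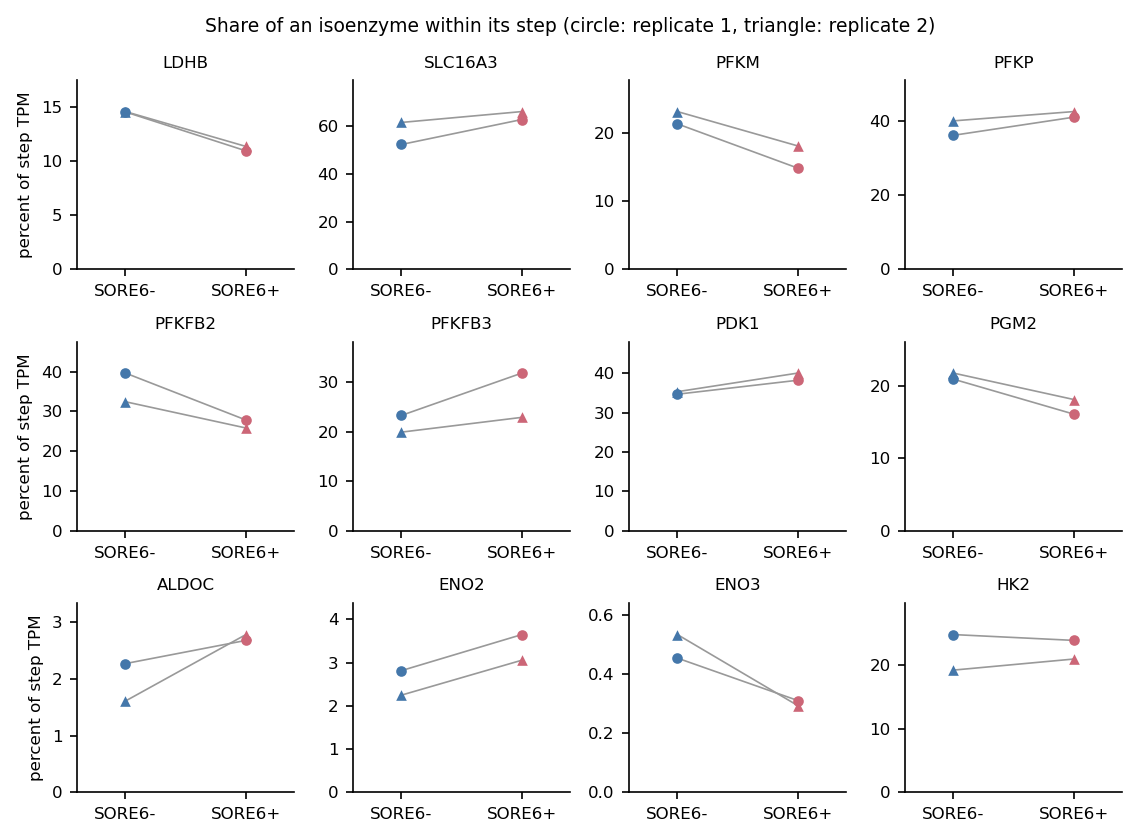
Percent of the summed TPM of its step held by each of 12 isoenzymes in SORE6- (blue) and SORE6+ (red) cells, with circles and triangles for replicates 1 and 2 and a line joining libraries of the same number. LDHB went from 14.6% to 10.98% and 11.4%, PFKM and PFKFB2 were lower without overlap, and HK2 overlapped.

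Pyruvate dehydrogenase kinases switch off the enzyme that feeds pyruvate into the mitochondria. PDK1 stood at 28.8 and 24.6 TPM in SORE6- cells against 36.9 and 30.2 TPM in SORE6+ cells, without overlap (log2 fold change 0.31, paired limma fit, adjusted p = 0.0702). PDK2, the most abundant of the 4 kinases, stood at 44.4 and 38.7 TPM against 51.1 and 39.1 TPM (0.11, adjusted p = 0.420). PDK1 alone passed, and its share of the kinases went from 34.7% and 35.3% to 38.2% and 40.0%. PDK3 stood at 7.13 and 5.09 TPM against 6.94 and 5.28 TPM, and PDK4, known as a gene of fasting and fat use, at 2.74 and 1.35 TPM against 1.66 and 0.87 TPM. PDK3 hardly differed, while PDK4 was lower in both pairs with overlapping gates (−0.41, paired limma fit, adjusted p = 0.181).

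Glycogen stores glucose, and phosphoglucomutase links it to glycolysis. PGM1, the main mutase, stood at 108 and 93.3 TPM in SORE6- cells against 135 and 116 TPM in SORE6+ cells, with a ratio of 1.25 in each pair (log2 fold change 0.32, paired limma fit, adjusted p = 0.0479). PGM2 stood at 28.6 and 25.99 TPM against 25.9 and 25.7 TPM (−0.08, adjusted p = 0.580), so that PGM1 went from 79.0% and 78.2% of the step to 83.9% and 81.9%, without overlap. GBE1, the branching enzyme, stood at 47.5 and 51.0 TPM against 54.9 and 63.4 TPM (0.26, adjusted p = 0.0842). Both SORE6+ libraries of PGM1 and GBE1 were above both SORE6- libraries. GYS1, the muscle glycogen synthase, stood at 40.8 and 36.95 TPM against 45.1 and 43.3 TPM, also without overlap but short of the threshold (0.18, paired limma fit, adjusted p = 0.164). The phosphorylases break glycogen down. PYGB, the brain form, stood at 146 and 110 TPM against 158 and 138 TPM (0.22, adjusted p = 0.115). PYGL, the liver form, stood at 88.2 and 73.8 TPM against 96.7 and 79.7 TPM (0.12, adjusted p = 0.244). In both genes the gates overlapped, and both were higher in SORE6+ cells within each pair.

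Summed over isoenzymes, all 18 steps and groups had a higher TPM in SORE6+ cells within both pairs, and in 16 of them the gates did not overlap. The exceptions were the pyruvate dehydrogenase kinases and the glycogen phosphorylases. Of the 18, 6 hold a single gene, so these counts in part repeat those by gene. The ratio of means ran from 1.12 for the kinases to 1.397 for phosphoglycerate kinase. Lactate dehydrogenase summed to 2526 and 2265 TPM against 2934 and 2767 TPM, and phosphofructokinase to 194 and 163 TPM against 258 and 205 TPM. The sums hide the unequal isoenzymes, since in phosphofructokinase, the PFKFB enzymes, enolase, lactate dehydrogenase, the lactate carriers, the dehydrogenase kinases and phosphoglucomutase at least 1 gene had a lower mean. Shares were taken for every gene of a step with 2 or more genes, except GYS1 and GBE1. Of these shares, 8 were higher and 11 lower in SORE6+ cells without overlap. In a step of 2 genes both shares separate together, so such a step counts on both sides. No matching count over all genes was made. Random labels on 2 libraries against 2 would separate them, in either direction, with a probability of 0.333. The higher shares were those of PFKP, ALDOC, ENO2, LDHA, SLC16A3, PDK1, PGM1 and HKDC1, the last of which stayed below 1 TPM in every library. Shares of a step add up to 100, so a higher share of any gene forces a lower share elsewhere.

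**Figure D4:**
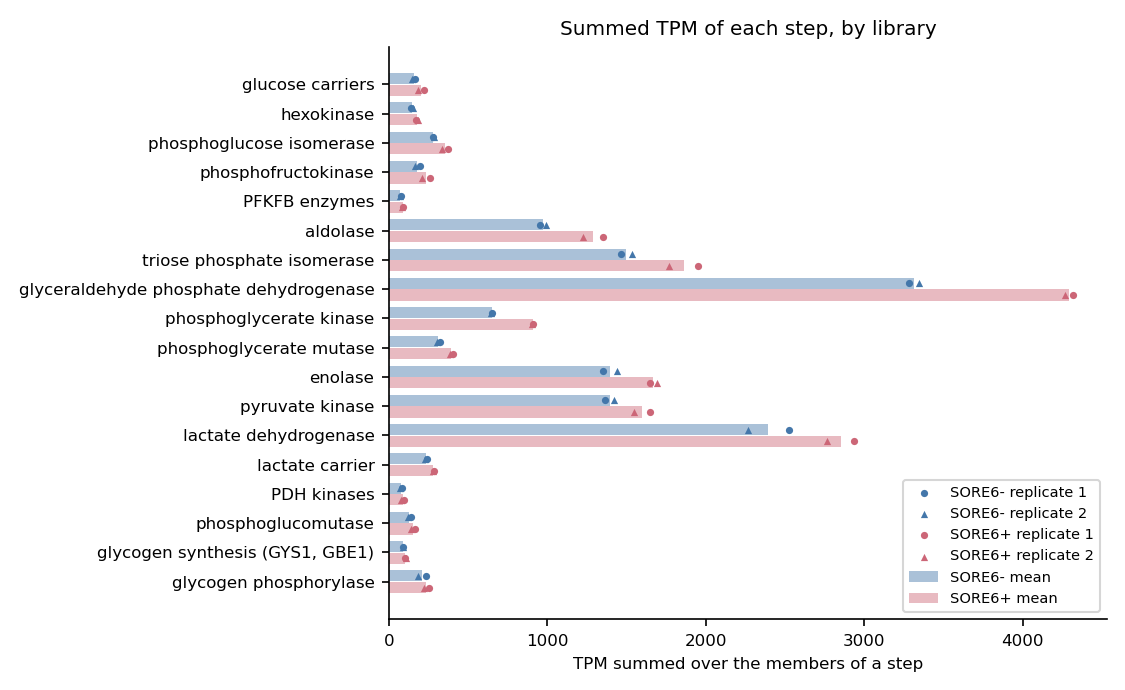
TPM summed over the genes of each of 18 steps or groups, with bars for the mean of each gate and points for the libraries (circles replicate 1, triangles replicate 2). Every sum is higher in SORE6+ cells within both pairs, with ratios of means from 1.12 to 1.397.

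Other genes of the same metabolism are given for context, and no test compared them with the 37 genes. Of 78 further pathway genes, 77 were found and 53 tested, and the paired fit called 0 at 1.5-fold in either direction, with 13 at an unadjusted p under 0.05, a share like the 24.7% of all protein-coding genes. Limma without the block also called 0, with 2 genes at an unadjusted p under 0.05. Their median log2 fold change was −0.00, with 18 genes higher and 20 lower in both pairs, against 25.3% and 43.3% of protein-coding genes. In the pentose phosphate pathway 5 of 7 genes had a higher mean in SORE6+ cells. Without overlap, 3 of the 7 were higher and 2 lower, against 11.2% and 19.4% of protein-coding genes. An adjusted p under 0.1 in the paired limma fit was found for 1 of the 53 genes as higher and 2 as lower. The background was 3.54% of protein-coding genes higher and 6.67% lower. These 3 genes are named here only because of that value. TALDO1, of the pentose phosphate pathway, stood at 178 and 170 TPM against 216 and 210 TPM (0.29, adjusted p = 0.0479). PDHA1, a catalytic subunit of pyruvate dehydrogenase, stood at 203 and 195 TPM in SORE6- cells against 177 and 161 TPM in SORE6+ cells (−0.23, adjusted p = 0.0671). EMB, a chaperone of lactate carriers, stood at 7.56 and 6.99 TPM against 5.11 and 5.11 TPM (−0.44, adjusted p = 0.0880). None of the 3 overlapped between the gates, and none reached 1.5-fold. The abundant TKT, also of the pentose phosphate pathway, stood at 359 and 426 TPM against 379 and 407 TPM, and GAA, the lysosomal enzyme that degrades glycogen, at 80.9 and 74.7 TPM against 95.2 and 83.8 TPM. In gluconeogenesis the gates overlapped for G6PC3, at 70.5 and 102 TPM against 84.0 and 95.9 TPM.

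**Figure D5:**
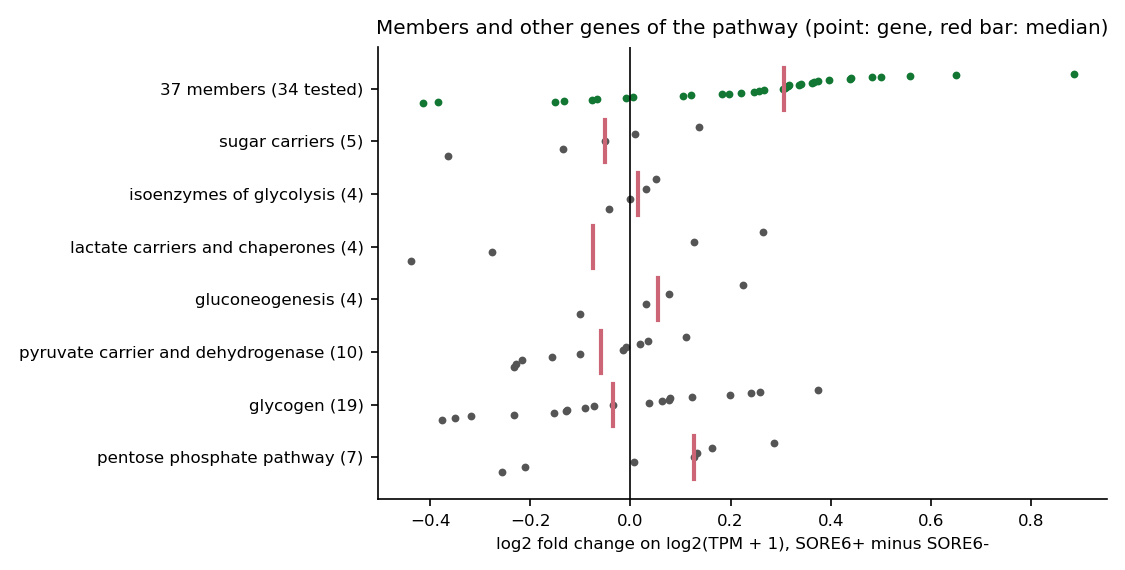
Log2 fold change (SORE6+ minus SORE6-, on log2(TPM + 1)) of the 34 genes tested and of 53 other genes of the pathway by group, with a point for each gene and a red bar for the median. The median of the 34 genes is 0.31, and that of the 53 others is −0.00.

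Other values moved with the gates. Of 13 known targets of the low-oxygen response outside the 37 genes, 7 were higher in SORE6+ cells within both pairs, against the 25.3% of protein-coding genes given above, 1 was lower and 5 were split. The gates overlapped in 8 of the 13. Without overlap, 5 were higher and 0 lower, against 11.2% and 19.4% of protein-coding genes. Their summed level was 1012 and 804 TPM against 1453 and 1162 TPM, and NDRG1 held the largest part of it. NDRG1, at 462 and 349 TPM against 801 and 591 TPM, and BNIP3, at 79.2 and 61.6 TPM against 125 and 103 TPM, were called higher in the paired limma fit (adjusted p = 0.0117 and 0.0182). No other of the 13 was called, and 0.554% of protein-coding genes were called higher. The part of oxygen supply in the levels of the 37 genes was not tested. Immune markers summed to 32.7 and 28.3 TPM against 49.5 and 54.5 TPM, almost all of it CD68, at 30.7 and 27.5 TPM against 47.9 and 53.8 TPM. CD68 was the only immune marker tested, and the paired limma fit called it higher (log2 fold change 0.78). Of the 5 immune markers, 3 stayed below 1 TPM in all libraries. Endothelial markers summed to 13.2 to 17.1 TPM and fibroblast markers to 14.7 to 39.9 TPM. Proliferation markers summed to 506 and 366 TPM in SORE6- cells and 458 and 351 TPM in SORE6+ cells. With TPM as deposited the sum was lower in replicate 2 of both gates and lower in SORE6+ cells within both pairs. The order in the replicate 2 pair depends on scaling, since its relative log expression factors are 0.985 for SORE6- and 0.934 for SORE6+. Of the 5 markers, 3 were lower in both pairs, against 43.3% of protein-coding genes, and 0 higher, against 25.3%. The gates overlapped in all 5, and CCNB1 alone had an adjusted p under 0.1 in the paired limma fit (adjusted p = 0.0728, lower). The part of proliferation in the levels of the 37 genes was not tested.

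Reads that fit several genes limit some of these values. More than 25% of the distinct 31-base sequences of a gene's transcripts also occurred in other genes for ALDOA (53.6%), PDK2 (38.1%), PGAM1 (35.7%), LDHB (31.4%), SLC2A3 (30.4%) and GAPDH (29.1%). The genes that share most with ALDOA, PDK2, PGAM1, SLC2A3 and GAPDH stood at 0 to 7.42 TPM. For LDHB that gene was AC010197.2, which has no value in the deposited data. Reads from the sequence that both share may therefore be counted to LDHB, also in its share and its ratio to LDHA. The 62 annotated GAPDH pseudogenes together stood at 3.02 to 5.79 TPM.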

How the data were processed

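The authors used FastQC and MultiQC for read quality, Trim Galore for trimming, salmon for transcript abundance and tximport for sums per gene, with GRCh38 as the build in the submitters' processing notes. The tools' versions were not stated. The deposited values are TPM as the authors computed it, per gene and library, with no counts, so no counting error could be given.

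Values were taken to log2(TPM + 1). A minimum of 1 TPM in 2 or more libraries left 17642 genes, which were tested with limma 3.58.1 in R 4.3.3 (trended prior variance), with the gate as the only term and Benjamini-Hochberg adjustment over all genes tested. The paired fit added the replicate number as a block and kept the 12826 protein-coding genes of GENCODE v29. Replicate numbers were read as pairs because the sorted cells were described as separate pairs and the numbers recur in each gate, although no source says so in words. Deviations from the gate mean of libraries with the same number had a correlation of 0.344 across 17642 genes, which are not independent. Calls needed an adjusted p below 0.1 and a 1.5-fold difference. Step sums, shares and ratios are descriptions. Of the gene IDs, 57844 matched GENCODE v29 without the version, and so did those of all 37 genes. Promoters came from RefSeq (GRCh38.p14), the 250 bases before the start, searched for ACGTG and GCGTG on both strands. Shared sequence was counted as 31-base words of GENCODE v29 transcripts.

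The 37 genes, the other pathway genes, the marker lists, the paired fit and its thresholds were chosen with earlier results of these data known. All 37 genes are accounted for. Of the other lists, genes called in a fit or else the 2 most abundant could be named. Alternatives were pseudocount 0.1, no filter, a filter at 5 TPM, relative log expression and upper-quartile factors, the block, and each library left out. The fits were also run on values simulated from the same models, with 200 genes changed. Such values cannot test the reading of replicate numbers as pairs, the scaling or the filter. Tables were made with pandas 2.3.3 and numpy 2.4.6 in Python 3.11.15, and plots with matplotlib 3.10.9.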

Additional observations from a re-analysis of the deposited data

How the results depend on the processing

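Limma without a block called 0 of the 34 genes under every alternative without the block, each of the 4 libraries left out included. The block over all genes also gave 0, while the block with protein-coding genes only gave 2 of the 34 (71 genes higher and 93 lower in all). Those 2 became 0 with no filter on low values, with all genes, or with no replicate block, and 3 with relative log expression or upper-quartile factors, which added PFKFB3. With no minimum fold change 22 passed, a count that was 22 to 25 with pseudocount 0.1, a filter at 5 TPM or either set of factors and 0 with no filter, with all genes or without the block (these recounts were chosen after seeing the data). The cause was not tested. The paired fit could not be refitted without a library, since no residual degrees of freedom remain.

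The split of protein-coding genes between higher and lower depended on scaling. In the paired fit without a minimum fold, 34.7% of the genes past the adjusted p were higher in SORE6+ cells, against 73.2% with relative log expression factors and 70.0% with upper-quartile factors. The median log2 fold change of the 34 genes was 0.39 and 0.38 with these factors, where that of protein-coding genes was 0.03 and 0.03, and it ranged from 0.23 to 0.33 with 1 library left out. With either set of factors, genes lower without overlap went from 3 to 1, ENO3. The log2 fold change turned to 0.015 and 0.0089 for PFKM, to 0.074 and 0.068 for SLC16A1, and for PGM2 to 0.0041 with relative log expression factors. With 1 library left out, the log2 fold change ranged from −0.31 to 0.0076 for PFKFB2, −0.20 to 0.18 for SLC16A1, −0.085 to 0.30 for PDK2, −0.20 to 0.21 for PDK3 and −0.017 to 0.26 for PYGL. In all, 8 of 136 such values over the 34 genes turned, in these 5 genes. Summed steps higher in SORE6+ cells numbered 17 to 18, the exception being the pyruvate dehydrogenase kinases.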
